A study of Homo sapiens with 4 samples.

Results

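The 34 genes described here encode the enzymes that make cholesterol, the proteins that sense and regulate it, and those that take it up, move it, store it and export it. They were chosen by name as genes of this pathway, with earlier results of these data known. Each symbol was matched to an Ensembl identifier of the deposited table, which lists 58884 genes. All 34 were found. Their RNA was measured in 2 human thyroid cancer cell lines, FTC-133 from a follicular and 8505C from an anaplastic carcinoma. Each had been transfected either with an empty vector or with a vector for overexpression of CRABP1, a cytoplasmic carrier of retinoic acid, which gives 4 groups with 1 library each. All 4 groups therefore carried a vector. The sources used here do not give the promoter that drives CRABP1, the time after transfection, or whether libraries came from separate cultures or clones, so a p-value here measures only the spread between these libraries, which may be technical.

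Cells build cholesterol from acetyl-CoA through mevalonate, isoprenoid units and squalene. When sterols in the endoplasmic reticulum are scarce, SCAP escorts the membrane-bound factor SREBP-2, the product of SREBF2, to the Golgi, where it is cut and released to activate the genes of synthesis and uptake, and INSIG1 holds SCAP back when sterols are plentiful. Oxysterols activate the nuclear receptors LXR-alpha (NR1H3) and LXR-beta (NR1H2), which promote export through ABCA1 and ABCG1. In this way synthesis genes and export genes are usually driven by opposite sterol states.

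Values are TPM, that is, reads per gene length scaled to the same total in every library, so levels can be compared between genes. About 19174557 to 20331462 reads per library could be recovered from the table. For 17 of the 34 genes these came out as whole reads in all 4 libraries, and for the others the read number is an estimate from the GENCODE 29 exon length. Ratios of CRABP1 to vector are plain TPM ratios, each with a 95% exact Clopper-Pearson interval that covers counting error only, and without a replicate no p-value was computed within a line. Log2 ratios were taken of TPM + 1, which understates the ratio of low genes. CRABP1 itself stood at 0 TPM with vector in either line and at 385 and 537 TPM in the CRABP1 libraries of FTC-133 and 8505C. The mitochondrially encoded genes held 28.6% of the TPM in FTC-133 with vector and 25.9% to 26.4% in the other libraries. Of 8 thyroid markers, 4 reached 1 TPM in FTC-133 and 2 in 8505C, and SLC5A5 was at 0 and TG below 1 TPM in all libraries. PAX8 was at 100 and 143 TPM in FTC-133 and at 0.240 and 0.161 TPM in 8505C, whereas NKX2-1, at 44.7 and 17.7 TPM in FTC-133 and at 118 and 113 TPM in 8505C, and HHEX, at 8.45 and 9.32 TPM and at 22.4 and 27.8 TPM, were higher in 8505C. In such bulk RNA, fewer cells of a type and less RNA per cell cannot be told apart.

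Promoters from RefSeq (GRCh38.p14, 250 bases before to 50 after the gene's start) were matched for 29 of the 34 genes, and ACAT2, FDFT1, SQLE, SCARB1 and ABCG1 were not matched. Where the table lists several starts of a gene, the first was used. They were searched on both strands, with overlaps between motifs allowed, for the sterol regulatory element TCACNCCAC bound by SREBPs, the NF-Y box CCAAT and the SP1 box GGGCGG. The 7 sequences below run 5′ to 3′ along the gene over the 250 bases before its start. HMGCS1, MVD, FDPS and MSMO1 are shown as synthesis genes that were higher with CRABP1 in both lines, SREBF2 as the factor itself, STARD4 as a sterol carrier, and ABCA1 as the exporter that was lower in 8505C. Capitals mark NF-Y boxes, read CCAAT or, on the other strand, ATTGG, and sites with at most 1 mismatch to the sterol regulatory element.
HMGCS1 (chr5:43313413-43313662, minus strand): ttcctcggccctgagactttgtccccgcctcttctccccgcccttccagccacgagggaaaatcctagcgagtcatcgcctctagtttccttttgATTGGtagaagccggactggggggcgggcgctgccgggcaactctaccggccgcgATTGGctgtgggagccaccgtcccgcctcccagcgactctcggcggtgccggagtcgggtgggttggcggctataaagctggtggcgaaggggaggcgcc
MVD (chr16:88663092-88663341, minus strand): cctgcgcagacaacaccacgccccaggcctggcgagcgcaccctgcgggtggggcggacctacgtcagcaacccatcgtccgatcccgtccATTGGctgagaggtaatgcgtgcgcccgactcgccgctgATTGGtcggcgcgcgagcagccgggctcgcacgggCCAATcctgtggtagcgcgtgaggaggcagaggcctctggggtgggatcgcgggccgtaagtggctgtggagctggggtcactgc
FDPS (chr1:155308616-155308865, plus strand): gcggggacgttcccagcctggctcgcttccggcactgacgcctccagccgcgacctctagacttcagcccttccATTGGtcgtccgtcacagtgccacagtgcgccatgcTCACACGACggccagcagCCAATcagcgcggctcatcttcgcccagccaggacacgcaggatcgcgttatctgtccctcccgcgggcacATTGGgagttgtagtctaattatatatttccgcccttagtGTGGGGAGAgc
MSMO1 (chr4:165327419-165327668, plus strand): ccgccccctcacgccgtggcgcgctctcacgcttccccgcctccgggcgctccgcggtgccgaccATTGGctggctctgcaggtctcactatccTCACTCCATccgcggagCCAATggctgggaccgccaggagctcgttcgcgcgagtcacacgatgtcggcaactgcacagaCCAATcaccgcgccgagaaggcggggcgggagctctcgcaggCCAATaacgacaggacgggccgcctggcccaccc
SREBF2 (chr22:41832855-41833104, plus strand): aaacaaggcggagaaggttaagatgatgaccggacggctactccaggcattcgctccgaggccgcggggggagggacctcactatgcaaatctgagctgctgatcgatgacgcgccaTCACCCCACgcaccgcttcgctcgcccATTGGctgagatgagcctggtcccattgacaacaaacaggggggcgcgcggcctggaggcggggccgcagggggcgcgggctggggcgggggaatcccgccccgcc
STARD4 (chr5:111512536-111512785, minus strand): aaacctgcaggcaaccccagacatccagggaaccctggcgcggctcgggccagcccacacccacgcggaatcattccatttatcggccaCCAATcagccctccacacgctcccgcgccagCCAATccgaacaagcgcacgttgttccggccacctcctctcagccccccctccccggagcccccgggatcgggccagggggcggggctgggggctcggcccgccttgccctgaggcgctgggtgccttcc
ABCA1 (chr9:104928156-104928405, minus strand): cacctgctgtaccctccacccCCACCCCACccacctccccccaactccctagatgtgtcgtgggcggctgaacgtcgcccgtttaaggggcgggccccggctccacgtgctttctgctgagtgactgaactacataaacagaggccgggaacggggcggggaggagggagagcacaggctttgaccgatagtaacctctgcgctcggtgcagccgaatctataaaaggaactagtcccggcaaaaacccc

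NF-Y boxes were common in these promoters. They were found in 19 of the 29 promoters, 65.5%, against 34.6% of all 35116 promoters and 36.8% of the 10860 promoters of expressed protein-coding genes. Promoters with 2 or more NF-Y boxes numbered 13 among the 29 genes, whereas 10.8% of all promoters held as many. The SREBF2 promoter alone carried an exact sterol regulatory element, TCACCCCAC, at position -133 from the start, which is 3.45% of the genes against 1.13% of all promoters. With 1 mismatch allowed, 10 of the 29 promoters held one (34.5%, against 24.5% of all promoters). Among them were FDPS with TCACACGAC, MSMO1 with TCACTCCAT, NPC2 with TCACTCCTC and ABCA1 with CCACCCCAC. HMGCS1, MVD and STARD4 held none. SP1 boxes were in 26 of 29 promoters, 89.7%, against 68.7% of expressed protein-coding genes. ABCA1 had no NF-Y box in its window and 3 SP1 boxes. A match is a description of letters, and binding was not measured.

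With CRABP1, most of the genes were higher than with vector, more of them in FTC-133 than in 8505C, and of the 5 roles the synthesis steps had the highest median ratio in each line. Markers of other cell types also differed between the same libraries. The summed level of 6 fibroblast markers was 649 and 388 TPM in FTC-133, with COL1A1 at 388 and 175 TPM. In 8505C the sum was 56.9 and 78.4 TPM, with the highest marker at 50.0 and 66.0 TPM and LUM at 1.99 and 6.42 TPM. The markers did not move together. As a mean of both lines, the log2 ratio was -0.75 for COL1A1 and -0.21 for COL1A2. It was 0.15 for COL3A1, 0.35 for DCN, 0.68 for LUM and 0.49 for PDGFRB. In each library, 4 or 5 of the 6 markers reached 1 TPM. Their part in the ratios was not tested. In FTC-133, 33 of the 34 genes passed the filter of a mean of at least 1 TPM, ABCG1 being the exception. Of these, 28 were higher with CRABP1 and 5 lower, where 57.8% of all 19899 genes tested were higher and 42.2% lower. The interval of the ratio lay above 1 for 25 genes, against 25.8% of all genes, and below 1 for 3, against 16.5%. The median log2 ratio was 0.42 over the 33 genes and 0.06 over all genes. ACAT2, MVD, SQLE and HMGCS1 were past 2-fold, a limit that 6.02% of all genes passed upward, and none of the 33 was past 2-fold downward, where 4.92% of all genes were. With the libraries rescaled by the median of gene ratios, or with the mitochondrially encoded genes removed, ACAT2 was the 1 gene past 2-fold and 25 of the 33 were higher. Of all genes, 5.45% and 7.29% were past 2-fold upward in those settings, and 49.3% and 50.3% were higher. At 1.5-fold, 9 genes were past the limit upward and 0 downward, against 13.1% and 9.69% of all genes.

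In 8505C, all 34 genes passed the filter, 25 being higher with CRABP1 and 9 lower, where 54.7% of all 17561 genes tested were higher and 45.3% lower. Intervals lay above 1 for 18 genes, against 17.7% of all genes, and below 1 for 5, against 12.7%. The median log2 ratio was 0.18 over the 34 genes and 0.02 over all genes. None was past 2-fold in either direction, where 3.7% of all genes were past it upward and 4.07% downward. At 1.5-fold HMGCS1 was past the limit upward and ABCA1 downward, against 7.39% and 7.64% of all genes. The members all code for proteins, and the background among protein-coding genes alone differed from that of all genes. In FTC-133, 58.1% of the 12849 protein-coding genes were higher, intervals lay above 1 for 33.7% and below 1 for 21.9%, and 7.01% and 4.67% were past 1.5-fold upward and downward. In 8505C, 54.8% of 12081 were higher, intervals lay above 1 for 23.2% and below 1 for 16%, and 1.79% and 2.27% were past 1.5-fold upward and downward. Past 2-fold upward and downward were 2.09% and 1.52% of protein-coding genes in FTC-133, and 0.273% and 0.596% in 8505C.

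**Figure D1:**
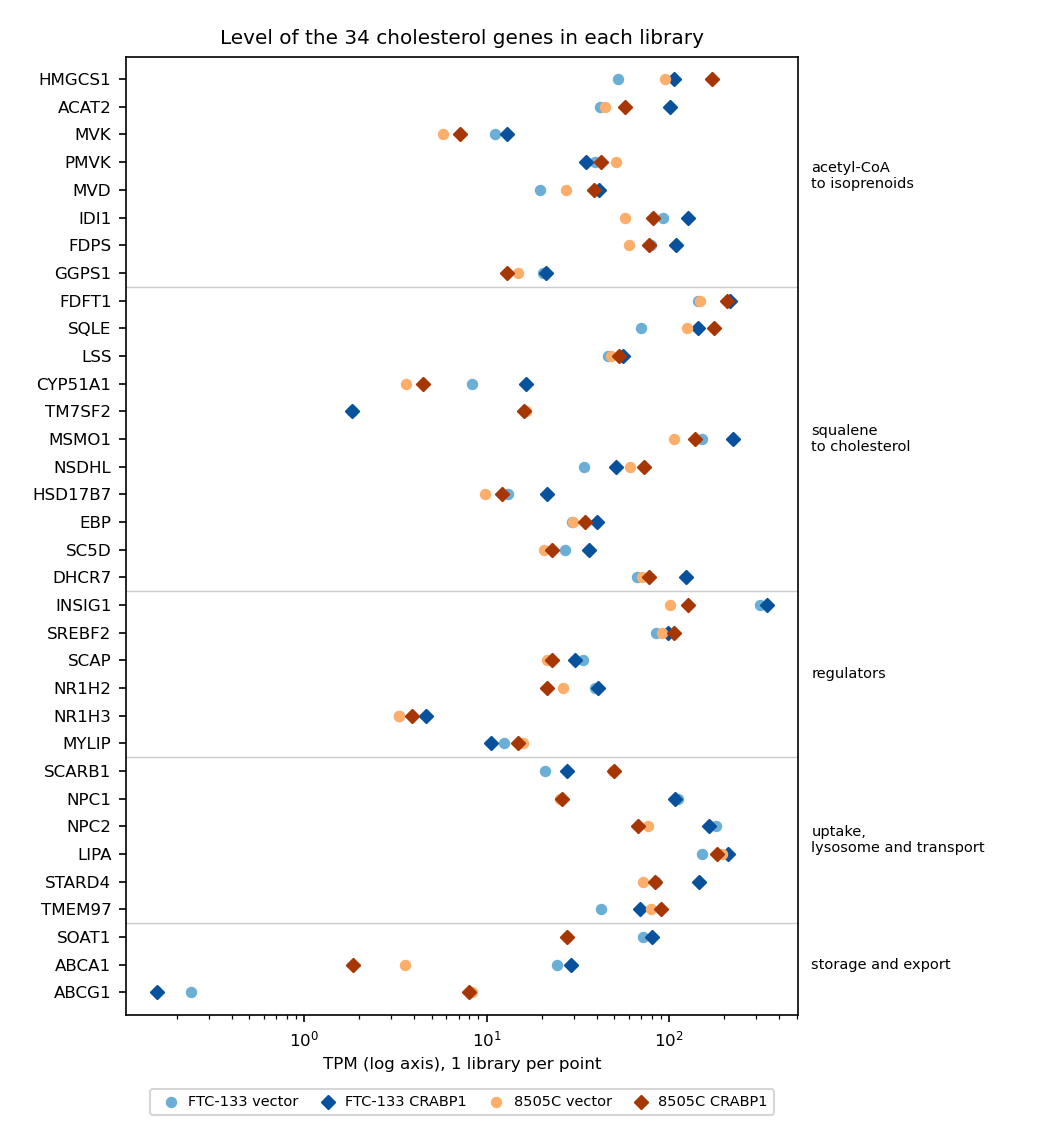
Level of each of the 34 genes in TPM on a log axis, 1 point per library, with circles for vector, diamonds for CRABP1, blue for FTC-133 and orange to brown for 8505C, and genes grouped by role. Most synthesis enzymes have the CRABP1 diamond to the right of the vector circle in both lines, while ABCG1 and TM7SF2 lie far apart between the lines.

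The first arm of the pathway, from acetyl-CoA to the isoprenoids, held 8 genes whose summed level went from 356 TPM with vector to 552 TPM with CRABP1 in FTC-133, a ratio of 1.55, and from 356 to 489 TPM in 8505C, a ratio of 1.37. HMGCS1 (ENSG00000112972; chromosome 5, 43289395 to 43313512, minus strand, GRCh38), which joins acetoacetyl-CoA and acetyl-CoA to make HMG-CoA, was in FTC-133 at 52.4 TPM in the vector library and at 106 TPM in the CRABP1 library, and in 8505C, in the same order, at 94.8 and 172 TPM. Its ratio was 2.02 (1.89 to 2.16) in FTC-133 and 1.81 (1.72 to 1.91) in 8505C, and no other member had a ratio as high in 8505C. Both CRABP1 libraries were above both vector libraries. ACAT2, the cytosolic thiolase of the first step, was at 41.6 and 101 TPM in FTC-133 and at 44.6 and 57.2 TPM in 8505C. The 2 vector libraries were thus close to each other, and the ratio of 2.43 (2.25 to 2.62) in FTC-133 was the highest of all members, against 1.28 (1.18 to 1.40) in 8505C. ACAT2 shares 397 exon bases with TCP1 on the opposite strand, and reads of the strands may not have been told apart. TCP1 itself was at 193 and 168 TPM in FTC-133 and at 199 and 212 TPM in 8505C.

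MVD, which decarboxylates mevalonate diphosphate, was at 19.6 and 41.1 TPM in FTC-133 and at 27.3 and 38.8 TPM in 8505C, and both CRABP1 libraries were above both vector libraries. The ratios were 2.10 (1.88 to 2.34) and 1.42 (1.28 to 1.57). IDI1, the isomerase that makes dimethylallyl diphosphate, was at 93.0 and 127 TPM in FTC-133 and at 57.3 and 81.4 TPM in 8505C. Its ratios of 1.36 (1.29 to 1.44) and 1.42 (1.32 to 1.53) overlapped between the lines. FDPS, the farnesyl diphosphate synthase, was at 79.1 and 109 TPM and at 60.6 and 77.8 TPM, with ratios of 1.38 (1.29 to 1.47) and 1.28 (1.19 to 1.39).

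The mevalonate kinase MVK was low, at 11.0 and 12.9 TPM in FTC-133 and at 5.73 and 7.14 TPM in 8505C, with ratios of 1.17 (1.02 to 1.34) and 1.25 (1.03 to 1.52). It shares 306 exon bases with MMAB on the opposite strand, which was also higher in both CRABP1 libraries, at 10.2 and 15.6 TPM in FTC-133 and 10.5 and 12.0 TPM in 8505C. The part of MMAB reads in the MVK values was not tested. The next enzyme, the phosphomevalonate kinase PMVK, had the opposite sign, at 39.0 and 35.0 TPM in FTC-133 and at 51.0 and 42.3 TPM in 8505C, and only the 8505C ratio of 0.829 (0.706 to 0.978) had an interval below 1. GGPS1, which makes geranylgeranyl diphosphate for protein prenylation and so lies on a branch away from sterols, was at 20.4 and 21.0 TPM and at 14.8 and 12.8 TPM. Both of its intervals held 1, and its FTC-133 log2 ratio of 0.04 was -0.03 under median-ratio scaling. GGPS1 shares 1422 of its 3809 exon bases with TBCE on the same strand, so reads there may not have been assigned.

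The second arm runs from squalene to cholesterol and held 11 genes, all higher with CRABP1 in FTC-133 and 10 of 11 in 8505C, though under median-ratio scaling TM7SF2 was at -0.04 on the log2 scale in FTC-133. Among all genes, 57.8% and 54.7% were higher. Intervals lay above 1 for 10 of the 11 in FTC-133 and 8 in 8505C, against 25.8% and 17.7% of all genes. The summed level was 591 and 929 TPM in FTC-133, a ratio of 1.57, and 639 and 816 TPM in 8505C, a ratio of 1.28. FDFT1, the squalene synthase that commits isoprenoids to sterols, was at 144 and 216 TPM in FTC-133 and at 148 and 209 TPM in 8505C. Its levels were nearly equal between the lines in each condition, and the ratios of 1.5 (1.44 to 1.56) and 1.41 (1.35 to 1.47) overlapped. SQLE, the squalene epoxidase, was at 70.3 and 144 TPM in FTC-133 and at 125 and 176 TPM in 8505C. The ratio was 2.05 (1.93 to 2.17) in FTC-133, and the 8505C ratio of 1.42 (1.35 to 1.49) started from a higher vector level.

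LSS, the cyclase that forms lanosterol, was at 46.2 and 56.0 TPM in FTC-133 and at 48.2 and 53.3 TPM in 8505C, with ratios of 1.21 (1.14 to 1.29) and 1.11 (1.04 to 1.18). CYP51A1, the lanosterol demethylase, was at 8.33 and 16.3 TPM in FTC-133 and at 3.62 and 4.47 TPM in 8505C. It shares 2844 of its 3584 exon bases with the model AC000120.2 on the same strand, listed at 0 TPM in all libraries, so reads there may not have been assigned and its level next to other genes is uncertain. Its FTC-133 ratio of 1.96 (1.62 to 2.39) rested on 162 and 309 reads, and the 8505C ratio of 1.23 (0.878 to 1.73) on 66 and 81 reads. TM7SF2, a sterol reductase of the endoplasmic reticulum, was at 1.83 and 1.84 TPM in FTC-133 and at 16.4 and 16.0 TPM in 8505C, and both intervals held 1. MSMO1, the C4-methyl sterol oxidase, was at 150 and 222 TPM in FTC-133, the highest level of the 19 enzymes in that line, and at 106 and 138 TPM in 8505C. Its ratios were 1.48 (1.40 to 1.56) and 1.30 (1.22 to 1.39).

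NSDHL, which acts with MSMO1 in removing the C4 methyl groups, was at 34.2 and 50.9 TPM in FTC-133 and at 60.7 and 72.8 TPM in 8505C, with ratios of 1.49 (1.30 to 1.70) and 1.20 (1.08 to 1.34). HSD17B7, the ketoreductase of the same complex, was at 13.0 and 21.4 TPM and at 9.83 and 12.1 TPM, with ratios of 1.65 (1.44 to 1.89) and 1.23 (1.03 to 1.46). Reads of its near-identical copy HSD17B7P2 could be exchanged with it, and that copy was at 11.0 and 11.2 TPM in FTC-133 and at 3.79 and 7.20 TPM in 8505C. The summed reads were not tested. EBP, the sterol isomerase, was at 29.5 and 40.1 TPM and at 29.7 and 34.5 TPM, with ratios of 1.36 (1.19 to 1.56) and 1.16 (1.01 to 1.34).

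As in the rest of this arm, the final reactions had larger ratios in FTC-133 than in 8505C, though the intervals of SC5D overlapped. SC5D, the sterol desaturase, was at 26.9 and 36.3 TPM in FTC-133 and at 20.7 and 22.7 TPM in 8505C, with ratios of 1.35 (1.23 to 1.48) and 1.10 (0.981 to 1.23). DHCR7, which reduces 7-dehydrocholesterol to cholesterol, was at 66.6 and 124 TPM in FTC-133 but at 71.0 and 77.1 TPM in 8505C. Its 2 vector libraries were similar, and the ratio was 1.86 (1.75 to 1.99) in FTC-133 against 1.09 (1.01 to 1.16) in 8505C. Over all 19 enzymes, the median log2 ratio was 0.56 in FTC-133 and 0.27 in 8505C, and the summed level went from 948 to 1481 TPM and from 995 to 1305 TPM.

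**Figure D2:**
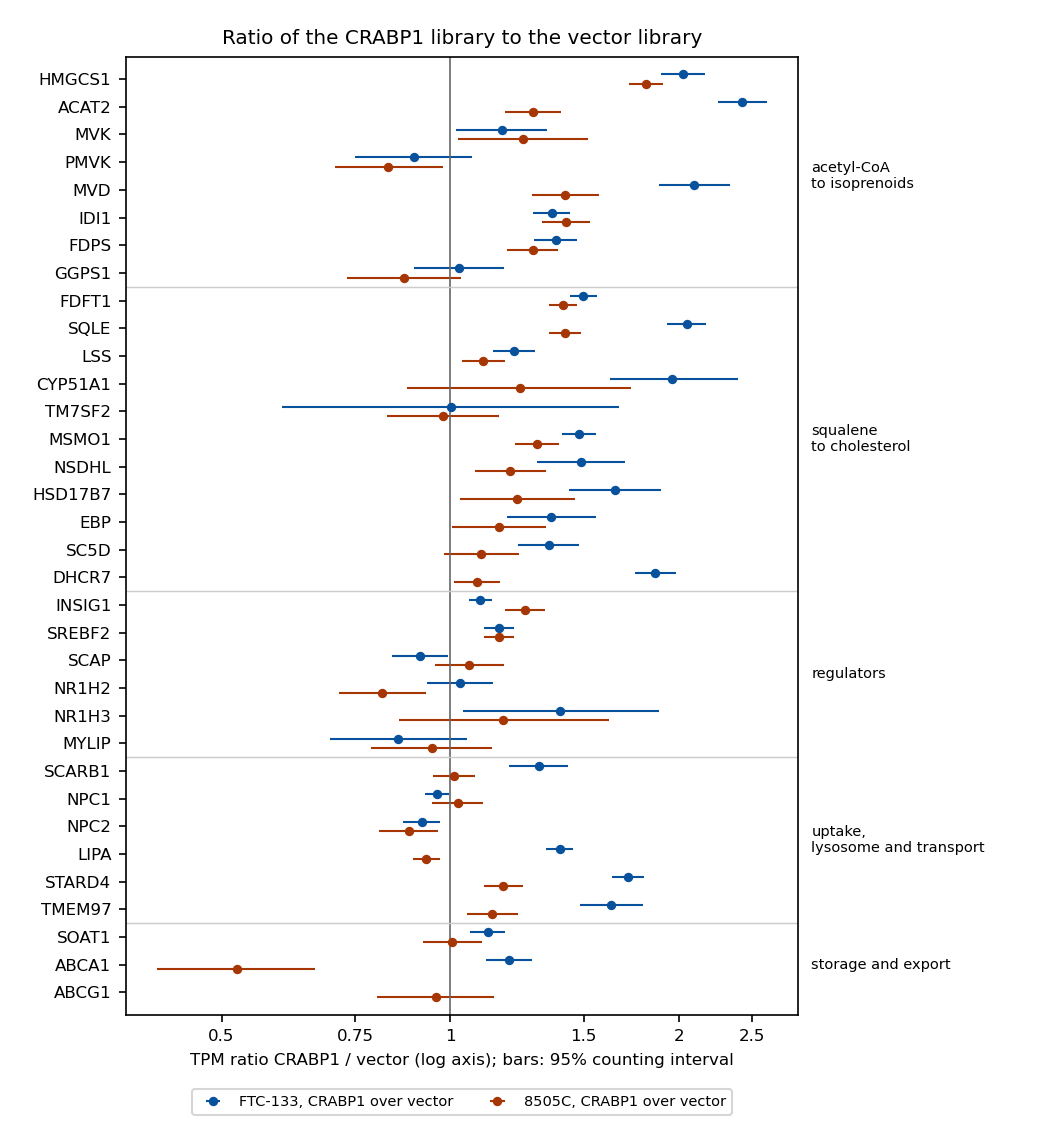
TPM ratio of the CRABP1 library to the vector library for each gene on a log axis, blue for FTC-133 and brown for 8505C, with bars for the 95% counting interval and a line at 1. ABCG1 is shown for 8505C only, and ABCA1 in 8505C, at 0.524, is the lowest point of the plot.

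The 6 regulators had smaller ratios, with a median log2 ratio of 0.09 in FTC-133 and 0.13 in 8505C. SREBF2 was at 85.1 and 98.7 TPM in FTC-133 and at 91.9 and 107 TPM in 8505C, and its ratio was 1.16 in both lines (1.11 to 1.22 and 1.11 to 1.21). INSIG1, itself a target of SREBPs, had the highest level of all members in FTC-133, at 316 and 346 TPM, and was at 101 and 127 TPM in 8505C. Its ratio of 1.10 (1.06 to 1.13) in FTC-133 was below that of 1.26 (1.18 to 1.33) in 8505C, the 1 gene of the 33 measured in both lines with intervals in that order, against 12.2% of all genes. SCAP was at 33.5 and 30.6 TPM and at 21.4 and 22.7 TPM, with ratios of 0.912 (0.838 to 0.992) and 1.06 (0.955 to 1.18).

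Of the LXR genes, NR1H2 was at 39.4 and 40.6 TPM in FTC-133 and at 26.2 and 21.3 TPM in 8505C, where its ratio was 0.814 (0.713 to 0.930). In FTC-133 its interval of 0.933 to 1.14 held 1, and its log2 ratio of 0.04 was -0.02 under median-ratio scaling. NR1H3 was low, at 3.32 and 4.64 TPM and at 3.30 and 3.87 TPM, with ratios of 1.40 (1.04 to 1.88) and 1.17 (0.855 to 1.62). MYLIP, an LXR target whose product marks lipoprotein receptors for degradation, was at 12.4 and 10.6 TPM and at 15.7 and 14.9 TPM, and both intervals held 1.

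Genes of uptake, lysosomal handling and transport had a summed level of 591 and 725 TPM in FTC-133, a ratio of 1.23, and of 497 and 498 TPM in 8505C. The sterol carrier STARD4, an SREBP target that moves cholesterol between membranes, was at 84.6 and 145 TPM in FTC-133 and at 71.6 and 84.0 TPM in 8505C, with ratios of 1.72 (1.63 to 1.80) and 1.17 (1.11 to 1.25). TMEM97, an SREBP target that binds the lysosomal exporter NPC1, was at 42.5 and 69.2 TPM and at 79.1 and 89.9 TPM, with ratios of 1.63 (1.48 to 1.79) and 1.14 (1.05 to 1.23). Both genes were higher with CRABP1 in each line. SCARB1, a receptor for high-density lipoprotein, was at 21.0 and 27.4 TPM in FTC-133, a ratio of 1.31 (1.20 to 1.43), and at 49.1 and 49.6 TPM in 8505C, where the interval held 1 and the log2 ratio of 0.02 was -0.01 under median-ratio scaling.

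NPC1, the membrane exporter of the lysosome, was at 112 and 108 TPM in FTC-133, a ratio of 0.960 (0.926 to 0.995), and at 25.3 and 25.9 TPM in 8505C, a ratio of 1.02 (0.947 to 1.11). NPC1 shares 604 exon bases with RMC1 on the opposite strand, at 46.4 and 52.0 TPM in FTC-133 and 15.65 and 12.5 TPM in 8505C. The part of RMC1 reads in the NPC1 values was not tested. NPC2, the soluble partner of NPC1, was at 180 and 165 TPM and at 76.2 and 67.1 TPM, with ratios of 0.917 (0.867 to 0.969) and 0.882 (0.807 to 0.963). NPC2 was the 1 member whose interval lay below 1 in both lines, against 3.47% of all genes. LIPA, the lysosomal acid lipase that frees cholesterol from its esters, was at 151 and 211 TPM in FTC-133 and at 196 and 182 TPM in 8505C. Its ratio of 1.39 (1.34 to 1.45) in FTC-133 lay above 1 and that of 0.930 (0.893 to 0.968) in 8505C below 1. LIPA overlaps on the opposite strand 65 exon bases of the interferon-induced gene IFIT2, at 83.5 and 122 TPM in FTC-133 and 74.9 and 59.4 TPM in 8505C, and its part in the LIPA values was not tested.

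Storage and export held 3 genes. SOAT1, which esterifies cholesterol for storage, was at 72.1 and 80.8 TPM in FTC-133, a ratio of 1.12 (1.06 to 1.18), and at 27.5 and 27.7 TPM in 8505C, where the interval held 1 and the log2 ratio of 0.01 was -0.01 under median-ratio scaling. ABCA1 (ENSG00000165029; chromosome 9, 104781002 to 104928237, minus strand, GRCh38), which loads cholesterol onto apolipoproteins, was at 24.3 and 29 TPM in FTC-133 and at 3.54 and 1.86 TPM in 8505C. The ratio was 1.20 (1.11 to 1.28) in FTC-133 and 0.524 (0.410 to 0.665) in 8505C, the latter from 205 and 107 reads. ABCA1 and LIPA were the members whose intervals lay on opposite sides of 1 in the 2 lines. In the same 8505C libraries the summed level of 6 leukocyte markers went from 57.1 to 29.1 TPM, nearly all of it CD14 at 56.5 and 28.6 TPM, with PTPRC at 0.150 and 0.194 TPM and LYZ and CD68 at 0, and its part in the ABCA1 values was not tested. ABCG1, a partner exporter to high-density lipoprotein, had 8 and 5 reads in FTC-133 and was at 8.35 and 7.99 TPM in 8505C, a ratio of 0.957 (0.801 to 1.14).

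Side by side, 23 of the 33 genes measured in both lines were higher with CRABP1 in both, against 32.5% of the 15580 genes measured in both, and 3 (PMVK, MYLIP and NPC2) were lower in both, against 19.4%. Intervals lay above 1 in both lines for 18 of the 33, where 7.01% of all genes did so. Those 18 were 14 synthesis enzymes with INSIG1, SREBF2, STARD4 and TMEM97. Of the 15 among them with a matched promoter, 14 held an NF-Y box, against 5 of the 14 other matched genes. The exception was IDI1, for which the first of 3 listed starts was used. Its window (chr10:1056655-1056954, minus strand) lies upstream of the gene position behind its TPM values, 1039152 to 1049170. Among the other matched genes, GGPS1, NR1H3 and LIPA, with no NF-Y box, likewise had 3, 4 and 3 listed starts. Whether other starts of these or of any other gene hold an NF-Y box was not tested. In FTC-133 the interval lay wholly above that of 8505C for 11 genes, against 14.6% of all genes, and 27 of the 33 had the larger log2 ratio there, against 53.9% of all genes. The 11 were ACAT2, MVD, SQLE, MSMO1, DHCR7, NR1H2, SCARB1, LIPA, STARD4, TMEM97 and ABCA1. The intervals behind the counts of 18 and 11 are of unscaled TPM and were not recomputed under median-ratio scaling. Some margins were narrow, such as lower limits of 1.02 for MVK in FTC-133 and 1.01 for EBP and DHCR7 in 8505C. NR1H2 and MSMO1 were also close to overlapping between the lines. Shares among protein-coding genes alone were not taken for counts over both lines. With 1 library per group no interaction of line and transfection could be fitted, so the difference between the lines has no test. Across the 33 genes, the log2 ratios of the lines had a Pearson r of 0.64 and a Spearman rho of 0.69, and over the 19 synthesis enzymes 0.71 and 0.63. Over 15579 genes without CRABP1 the same values were 0.04 and 0.03. The points of each line share the same 2 libraries, so these coefficients are descriptions.

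**Figure D3:**
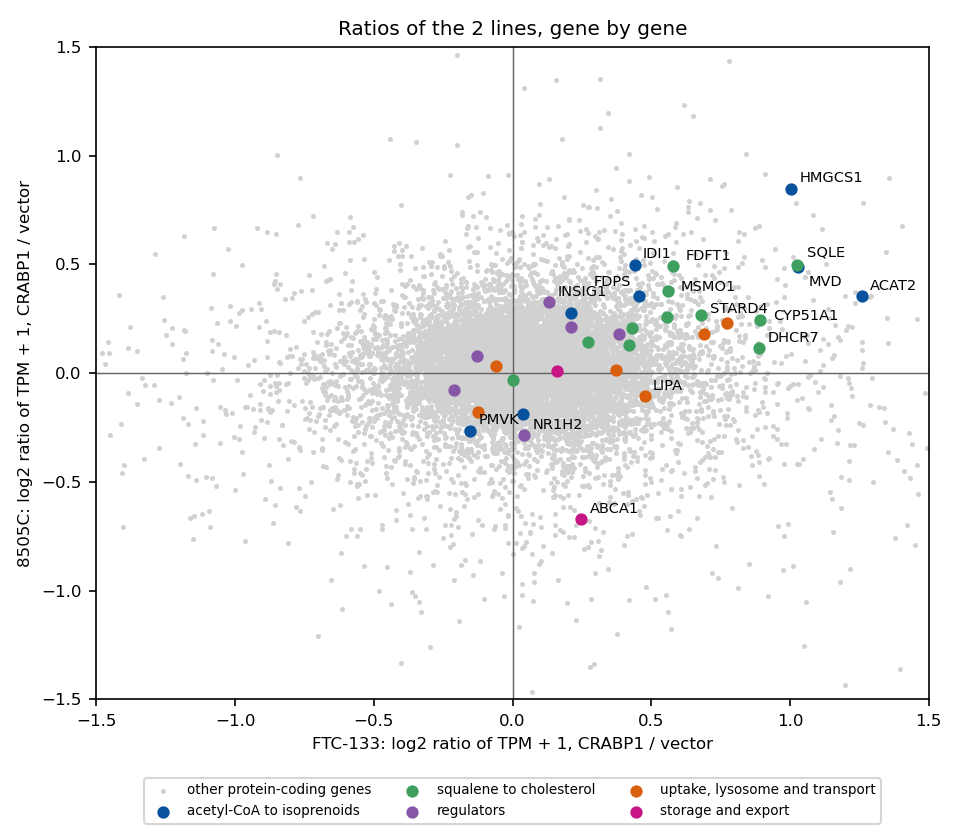
Log2 ratio of TPM + 1 of CRABP1 to vector in FTC-133 (x) and 8505C (y), for 11395 protein-coding genes in grey, with the members drawn on top in the colours of their roles. CRABP1 is left out and 101 genes lie beyond the axes. Most synthesis enzymes sit at the upper right, HMGCS1 farthest up, and LIPA and ABCA1 sit at the lower right.

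A fit over both lines, with cell line as a term and 1 residual degree of freedom, took out the difference in level between the lines. It asked whether the mean difference of CRABP1 and vector was large next to a moderated spread. That spread combines the gene's own disagreement between the lines with the typical value of genes of similar level. A standard error of this fit is therefore not the gene's own disagreement alone. SREBF2, with a log2 ratio of 0.212 in both lines, had an SE of 0.093. Under limma with Benjamini-Hochberg adjustment over 19513 genes, 0 of the 34 members passed an adjusted p of 0.05, where 0.00512% of all genes, which is CRABP1 alone, did. The adjusted p of the members ran from 0.920 to 0.998. At an unadjusted p under 0.05 there were 10 members, all higher with CRABP1, against 4.73% of all genes. They were HMGCS1, FDFT1, IDI1, SQLE, MSMO1, MVD, FDPS, NSDHL, ACAT2 and STARD4. HMGCS1 had the smallest limma p of the members, 0.00114 before and 0.920 after adjustment, with a log2 difference of 0.93 ± 0.10 (SE, 4 libraries) and the same direction in both lines. FDFT1 followed with a log2 difference of 0.54 ± 0.09 (SE). The median log2 difference over the 34 genes was 0.26.

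Other genes of sterol metabolism, 64 by a list of further sensors, accessory factors, prenylation enzymes, sterol carriers, oxysterol enzymes, receptors and LXR targets, had median ratios near those of all genes. In FTC-133, 35 of the 58 measured were higher and 23 lower, where 57.8% and 42.2% of all genes were. The median log2 ratio was 0.05, next to 0.06 over all genes. At 1.5-fold, 2 were past the limit upward and 1 downward, against 13.1% and 9.69% of all genes. Past 1.5-fold were SMPDL3A, an LXR target at 2.42 and 4.84 TPM, the fatty acid and lipoprotein receptor CD36 at 32.9 and 54.2 TPM, and, downward, the lipoprotein receptor VLDLR at 16.4 and 9.45 TPM. VLDLR had the opposite sign in 8505C, at 33.0 and 45.4 TPM. In 8505C, 36 of 57 were higher and 21 lower, where 54.7% and 45.3% of all genes were. The median was 0.05, next to 0.02 over all genes. At 1.5-fold, 0 were past the limit upward and 3 downward, against 7.39% and 7.64% of all genes. The 3 were the endocytic receptor LRP1 at 57.8 and 32.0 TPM, FAXDC2 at 4.40 and 2.13 TPM, and the bile acid enzyme HSD3B7 at 3.95 and 2.14 TPM. In the limma fit 0 of 59 passed for transfection, with 1 (CYB5B) at an unadjusted p under 0.05, against 0.00512% and 4.73% of all genes.

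The lines themselves differed in many of these genes, most in the exporters ABCA1 and ABCG1, the reductase TM7SF2 and the lysosomal NPC1. Under limma, 17 of the 34 passed an adjusted p of 0.05 for cell line, 5 higher in 8505C and 12 higher in FTC-133, where 35.2% of all genes passed, 13% higher in 8505C and 22.2% higher in FTC-133. Fitted among protein-coding genes alone, 22 of 34 passed, 7 and 15 in those directions, against 51%, 19.9% and 31.1% of such genes. Under median-ratio scaling, which moved the median line difference of all genes from -0.19 to -0.03, the members split into 8 and 8 and all genes into 3226 higher in 8505C and 3393 higher in FTC-133, against 2542 and 4335 before. The exporters went opposite ways. ABCG1 was 34.8-fold higher in 8505C than in FTC-133 with vector (17.4 to 81.4) and ABCA1 6.85-fold higher in FTC-133 (5.90 to 7.95). With CRABP1 the ABCA1 gap between the lines was 15.6-fold (12.8 to 19.2). On the log2 scale of TPM + 1 the limma differences of 8505C minus FTC-133 were 2.94 ± 0.27 (SE, adjusted p 0.00896) for ABCG1 and -2.94 ± 0.29 (SE, adjusted p 0.00974) for ABCA1.

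TM7SF2 was 8.94-fold higher in 8505C with vector (6.25 to 13.2) and 8.73-fold higher with CRABP1, and its limma difference was 2.60 ± 0.18 (SE, adjusted p 0.00644). SCARB1 at 1.01, HMGCS1 at 0.77 and NSDHL at 0.66 completed the genes called higher in 8505C. Among those higher in FTC-133, NPC1 was 4.45-fold higher with vector (4.19 to 4.72) and 4.17-fold with CRABP1, and had the lowest adjusted p of the members, 0.00423 under limma. NPC2 at -1.25, INSIG1 at -1.53, SOAT1 at -1.44 and CYP51A1 at -1.34 had the next largest differences, so NPC1 and NPC2, which act in the same lysosomal step, were both lower in 8505C. MVK, NR1H2, IDI1, MSMO1, SCAP and FDPS were also called, with differences from -0.43 to -0.81, and MVK, FDPS, MSMO1 and SCAP were not called under median-ratio scaling. Without the filter on low values 5 calls remained, those of TM7SF2, NPC1, INSIG1, SOAT1 and NPC2. FDFT1 and LSS had differences of -0.0032 and -0.0050 and were not called. Each line is 1 cell line, so a difference holds for these lines and not for their tumour types.

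**Figure D4:**
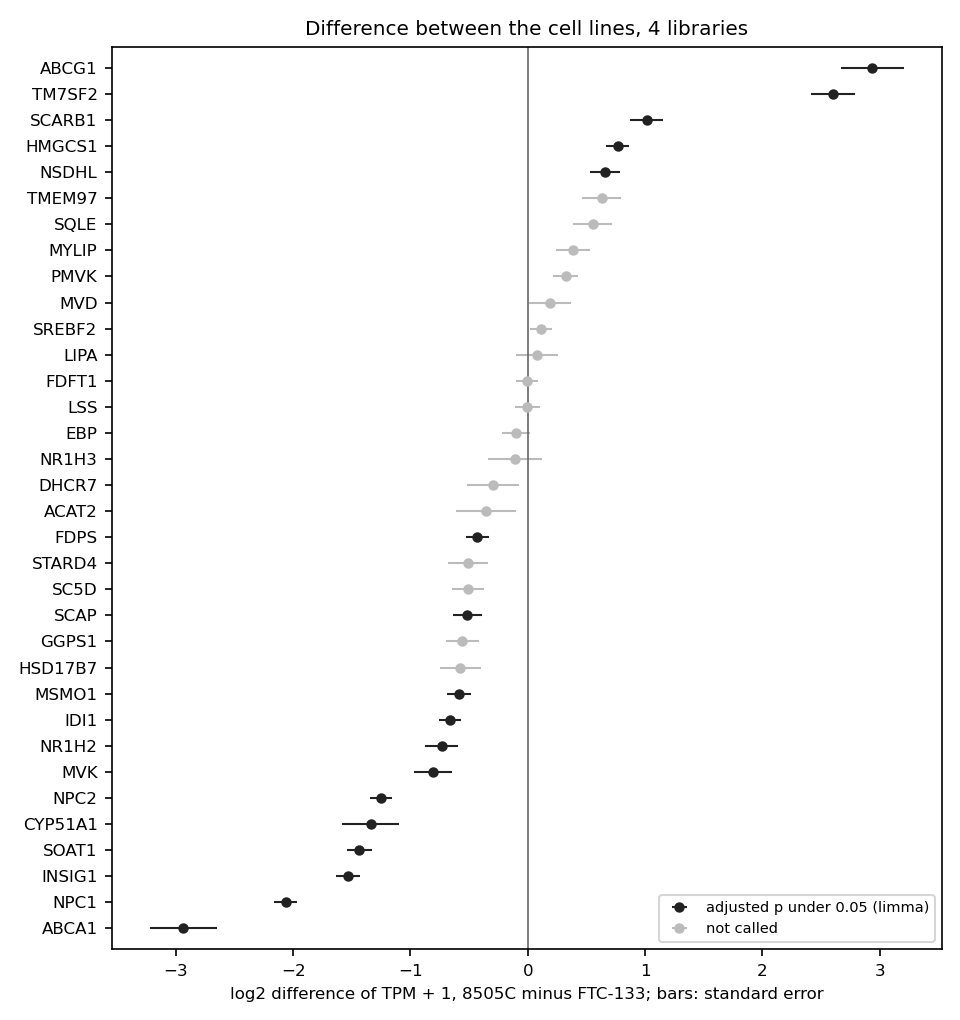
Log2 difference of TPM + 1 between the lines (8505C minus FTC-133) for the 34 genes from the limma fit over 4 libraries, with bars for the standard error and black for an adjusted p under 0.05. ABCG1 and TM7SF2 lie at the right, at 2.94 and 2.60, and ABCA1 and NPC1 at the left, at -2.94 and -2.06.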

How the data were processed

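RNA of 4 libraries was sequenced on an Illumina platform. The authors deposited 1 table of TPM values for 58884 Ensembl genes, each column summing to 1000000. FastQC, Trimmomatic 0.38, featureCounts 2.0.0 and GRCh38 are named, per the submitters' processing notes. No aligner, annotation release or strandedness is named in these sources. TPM multiplied by the GENCODE 29 exon length, known for 58611 genes, came out as whole multiples of a library's smallest step for 90.5% to 91.6% of values up to 50 reads and 74.1% to 75.8% of all values above 0, within 0.02 of a read. Those reads gave 95% Clopper-Pearson intervals of TPM ratios, for counting error only, and floors of 3 reads. Because TPM keeps no depth of its own, tests used log2(TPM + 1) over genes averaging at least 1 TPM: limma 3.58.1 with a mean-variance trend, terms for cell line and transfection, two-sided p-values and Benjamini-Hochberg adjustment at 0.05. The fit was also run on simulated data with equal changes in both lines, which does not cover changes that differ between the lines. Without replicates, genes within a line were counted by 2-fold and 1.5-fold limits, the sign of the ratio and the interval. As alternatives, the pseudocount was set to 0.1 and the filter was dropped or raised to 5 TPM. Others were median-ratio scaling, removal of mitochondrially encoded genes, protein-coding genes only, no trend, no second term, the vector libraries only and 1 mismatch in the sterol motif. All 34 members are given, grouped by role. The rule gave full values for members with the 8 largest smaller ratios of both lines, past 1.5-fold, among the 3 lowest of a line, with intervals on opposite sides of 1, or called or extreme between lines. The members and lists were chosen with earlier results of these data known. Python 3.11.15, pandas 2.3.3, NumPy 2.4.6, SciPy 1.17.1, matplotlib 3.10.9 and R 4.3.3 were used.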

Additional observations from a re-analysis of the deposited data

Results flagged for a closer look

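The ratio of the CRABP1 library to the vector library went in opposite directions in the lines, beyond counting error, for 2 genes. LIPA had a ratio of 1.39 in FTC-133 and 0.93 in 8505C. ABCA1 had a ratio of 1.2 in FTC-133 and 0.524 in 8505C. With 1 library per group the difference between the lines was not tested.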

How the results depend on the processing

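In FTC-133, the 4 genes past 2-fold upward became 1 and the 5 lower genes 8 with median-ratio scaling, and likewise 1 and 8 with mitochondrially encoded genes removed, while a 1.5-fold limit gave 9 upward. In 8505C, a 1.5-fold limit gave 1 upward and 1 downward in place of 0 and 0. Between the lines, the 5 genes called higher in 8505C became 1 without a filter, 8 with median-ratio scaling, 2 without a trend and 3 without a term for transfection, and the 12 called higher in FTC-133 became 4 without a filter and 5 without a trend. The median line difference of -0.32 was -0.15 with median-ratio scaling and -0.00021 in the vector libraries alone. The share of promoters with the sterol regulatory element went from 3.45% to 34.5% with 1 mismatch. The other 98 values were counts within 1.5-fold of the main count or medians within their spread. Among them were 0 members called for transfection under every alternative run. Such counts could still differ. The 12 called higher in FTC-133 were 8 with median-ratio scaling and 15 among protein-coding genes, where the 5 higher in 8505C were 7. Of single genes, 33 line calls were lost and 12 gained over these settings, and no gene with an interval off 1 or a call reversed its sign. The labels carry no replicate numbers. The fit for transfection pairs the libraries within each cell line, and 0 members were called with or without that term. Depth limits NR1H3 in both lines, CYP51A1 and ABCA1 in 8505C, and TM7SF2, MYLIP and ABCG1 in FTC-133, each with at most 205 reads.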
